A study of Mus musculus with 11 samples.

Results

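Corticotropin (ACTH) acts on the adrenal gland through a receptor that raises cAMP, and the genes described here are those of that receptor, its accessory protein and the steps behind cAMP. They are Mc2r, Mrap, Akr1b7, Prkaca, Prkar1a, Prkar2a, Prkar2b, Pde8b, Creb1 and Crem, chosen by gene symbol and not by any measured value. Earlier results of these data were known when they were chosen. All probes that the platform annotation assigns to one of these 10 symbols were taken, which gave 19 of 25697 probes for 9 genes. Akr1b7, an aldo-keto reductase that ACTH induces in the mouse adrenal cortex, was not analysed here because no probe carried its symbol. Of the 19 probes, 10 probes of 7 genes passed a filter on dim probes, described below.

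Adrenal RNA came from 5 mINDY-KO mice and 5 WT littermates, all males of 12 to 16 weeks on a C57B/6J backcross and fed standard chow. mINDY is a citrate transporter encoded by Slc13a5. mINDY-KO mice were homozygous for its deletion, which had been made with an Hprt1-Cre transgene and was then bred through heterozygous matings, so that the deletion was inherited and not limited to a cell type. The whole gland was measured, cortex and medulla together, so that fewer cells of a type and less RNA per cell cannot be told apart in any value below.

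ACTH binds the melanocortin 2 receptor on cortical cells, and this receptor reaches the cell surface only with its accessory protein MRAP. The receptor couples to adenylyl cyclases, and the cAMP they make binds the regulatory subunits of protein kinase A and releases its catalytic subunits. Phosphodiesterases break cAMP down again. The free kinase phosphorylates CREB, which acts at cAMP response elements, and the related gene Crem gives rise both to activators and to ICER, a short repressor that cAMP itself induces. In the adrenal cortex this pathway drives uptake of cholesterol and its conversion to glucocorticoids.

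Each mouse was measured on 1 single-colour Illumina bead array, except WT replicate 1, whose RNA was run on 2 arrays that were averaged and counted once. Median array signals ranged from 150 to 202 on WT arrays and from 122 to 238 on mINDY-KO arrays, the lowest being those of mINDY-KO replicates 3 and 4. Between 13260 and 13538 probes were detected on each array. Levels are given as log2 units above the mean of the array, after every array was set to the same spread over its probes. A difference between genotypes on this scale reads as a log2 fold change. The 13341 probes that reached a detection p under 0.05 in 5 or more of the 10 mice were kept and compared with limma and Benjamini-Hochberg adjustment over all of them. Levels of different probes are not compared, because each probe has its own brightness. Slc13a5 had a detection p of 0.0714 or more on all 11 arrays, so its probe gave no check of the genotypes. All 7 adrenocortical markers and all 5 zona glomerulosa markers examined were kept, as were 8 of 10 chromaffin cell markers.

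No member differed between genotypes at an adjusted p under 0.05. This was 0 of 10 kept probes, against 2 of 13341 (0.0150%) over the whole array. The adjusted p-values of the members ran from 0.421 to 0.974 (limma). At an unadjusted p under 0.05, 1 of the 10 probes, that of Mc2r, differed, against 10.9% of all kept probes. Mean levels were higher in mINDY-KO mice for 4 probes and lower for 6, with a median log2 fold change of -0.033, beside -0.017 over all kept probes. The higher probes were those of Mc2r, Mrap, Prkar1a and Pde8b. The lower ones were 3 of Crem, 2 of Prkaca and 1 of Creb1, so that this count and median weigh Crem and Prkaca more than once. No kept probe separated the genotypes without overlap, which 2.06% of all kept probes did. Both arrays of WT replicate 1 differed by 0.0033 to 0.21 for these 10 probes (median 0.12). This is 1 pair of arrays of 1 mouse, so it gives only a rough idea of the error from one array to the next.

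**Figure D1:**
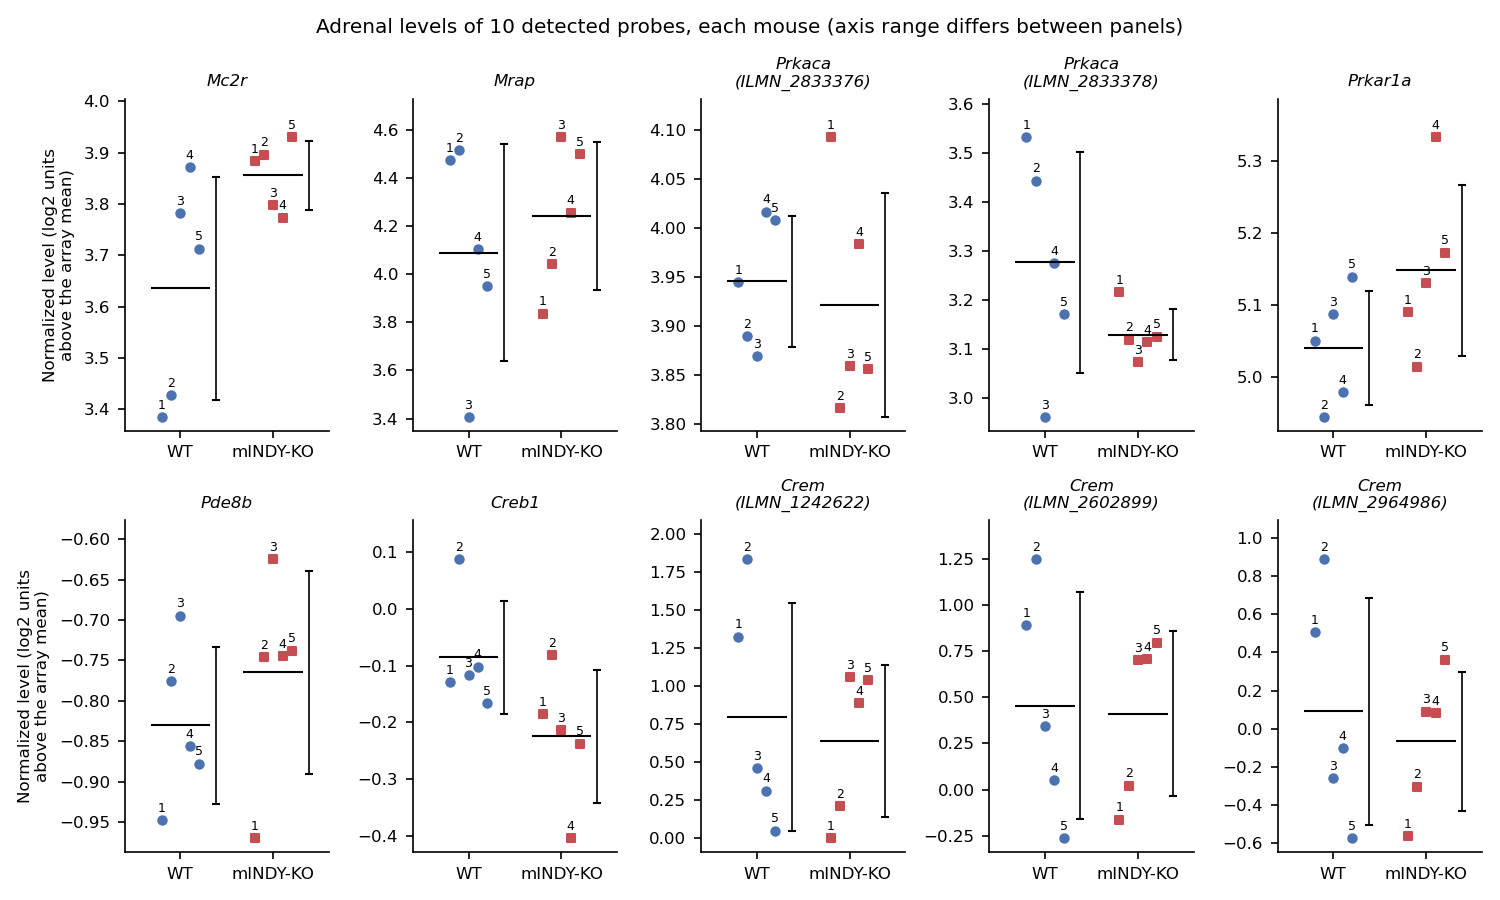
Normalized level of each kept probe (vertical axis, log2 units above the array mean, with its own range in each panel) in 5 WT mice (circles) and 5 mINDY-KO mice (squares), numbered by replicate, with the group mean as a horizontal line and the SD as an error bar. The genotypes overlap in all 10 panels, and the 3 Crem probes and Mrap spread over more than 1 log2 unit among the mice.

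The ACTH receptor gene Mc2r was detected in all mice, with signals from 2289 to 7731. Its levels in WT replicates 1 to 5 were 3.39, 3.43, 3.78, 3.87 and 3.71, and in mINDY-KO replicates 1 to 5 they were 3.88, 3.90, 3.80, 3.77 and 3.93. WT replicates 1 and 2 stood below the other 8 mice, and 3 of 5 mINDY-KO mice exceeded the highest WT mouse. WT mice averaged 3.64 ± 0.22 and mINDY-KO mice 3.86 ± 0.067 (SD, n = 5 per genotype). The log2 fold change of 0.22 (SE 0.095, 95% interval 0.016 to 0.42, which is a fold of 1.01 to 1.34) did not pass the test, with an adjusted p of 0.421 (limma). It was 0.16 without WT replicate 1 and 0.17 without WT replicate 2. The 3 probes of other genes whose levels followed Mc2r most closely over the 10 mice, a description without a test, were those of Mnat1 (r = 0.96), Mpv17 (r = 0.96) and Ppp1r8 (r = 0.96). WT replicates 1 and 2 were the lowest mice for these 3 genes as well. This is no separate support, since the 3 were picked for following Mc2r. Among cell type markers, Mc2r followed the 6 kept macrophage markers of 8, whose mean was 2.03 to 2.64 in WT and 2.33 to 2.76 in mINDY-KO mice, with r = 0.71 (permutation p = 0.0174, adjusted p = 0.325, rho = 0.56 with permutation p = 0.0972). It ran opposite to the chromaffin cell markers with r = -0.65 (permutation p = 0.0456, adjusted p = 0.448, rho = -0.54 with permutation p = 0.115). Without WT replicates 1 and 2 these were 0.22 and -0.26, so that both rested on those mice. By rank, Mc2r also followed the adipocyte markers (rho = 0.70, permutation p = 0.0305, adjusted p = 0.493, r = 0.39 with permutation p = 0.269, and r = 0.74 without WT replicates 1 and 2) and the capsular fibroblast markers (rho = 0.66, permutation p = 0.0431, adjusted p = 0.493, r = 0.56 with permutation p = 0.0959, and r = 0.90 without them). Within genotypes, r with Mc2r was only 0.071 for the adipocyte markers and 0.43 for the capsular fibroblast markers. It was 0.63 for the macrophage and -0.64 for the chromaffin cell markers. The part of these cell types in the Mc2r values was not tested. None of the other melanocortin receptors, Mc1r, Mc3r, Mc4r and Mc5r, passed the filter on dim probes.

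Mrap, the accessory protein that carries the ACTH receptor to the cell surface, was likewise detected in all mice, with signals from 3117 to 8622. Its levels were 4.47, 4.52, 3.41, 4.10 and 3.95 in WT replicates 1 to 5 and 3.84, 4.04, 4.57, 4.26 and 4.50 in mINDY-KO replicates 1 to 5. The spread within each genotype covered most of the spread between all mice, and WT replicate 3 was the lowest of all. The means of 4.09 ± 0.45 in WT and 4.24 ± 0.31 in mINDY-KO mice gave a log2 fold change of 0.15 (SE 0.19, 95% interval -0.26 to 0.56, limma adjusted p = 0.821). Without WT replicate 3 the difference turned to -0.020. Adipocytes use Mrap too, and fat can adhere to the gland. Of 12 adipocyte markers, 5 were kept (Adipoq, Car3, Lpl, Lep and Plin1), and Retn, Cidec, Fabp4, Pck1, Ucp1 and Cidea were detected in too few mice. The mean level of the 5 markers was 0.12 to 0.44 in WT and 0.19 to 1.17 in mINDY-KO mice, and Adipoq and Car3 were highest in mINDY-KO replicate 5 (1.16 and 1.25). The level of Mrap and that of these markers had a correlation of r = 0.42 over the 10 mice (permutation p = 0.221, adjusted p = 0.589, rho = 0.35 with permutation p = 0.331), and r = 0.31 without WT replicate 3 and mINDY-KO replicate 3. The part of adipocytes in the Mrap values was not tested. Markers of several other cell types gave correlations with Mrap of larger size, and their differences from that of the adipocyte markers were not tested. The mean of the 5 zona glomerulosa markers, 2.15 to 2.91 in WT and 2.30 to 2.54 in mINDY-KO mice, ran opposite to it with r = -0.75 (permutation p = 0.0136, adjusted p = 0.325, rho = -0.53 with permutation p = 0.123), but with only -0.37 without WT replicate 3 and mINDY-KO replicate 3. The chromaffin cell markers gave r = 0.63 (permutation p = 0.0501, adjusted p = 0.448, rho = 0.59 with permutation p = 0.0804), and 0.81 without these 2 mice. The adrenocortical markers, 3.62 to 3.70 in WT and 3.39 to 3.89 in mINDY-KO mice, gave r = 0.52 (permutation p = 0.129, adjusted p = 0.507, rho = 0.76 with permutation p = 0.0154, adjusted p = 0.472), and 0.60 without them. The endothelial cell markers gave r = -0.57 (permutation p = 0.0863, adjusted p = 0.448, rho = -0.41 with permutation p = 0.246), and -0.50 without these 2 mice. For the macrophage markers r was -0.50 (permutation p = 0.145, adjusted p = 0.507, rho = -0.36 with permutation p = 0.311), and -0.69 without them. The part of these cell types in the Mrap values was not tested either.

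Prkaca encodes the catalytic subunit alpha of protein kinase A and was measured by 2 probes of the same transcript. With probe ILMN_2833376, levels were 3.94, 3.89, 3.87, 4.02 and 4.01 in WT and 4.09, 3.82, 3.86, 3.98 and 3.86 in mINDY-KO mice. The genotypes lay within one another here, with a log2 fold change of -0.024 (SE 0.073, 95% interval -0.18 to 0.13, limma adjusted p = 0.938). With probe ILMN_2833378, levels were 3.53, 3.44, 2.96, 3.27 and 3.17 in WT and 3.22, 3.12, 3.07, 3.11 and 3.12 in mINDY-KO mice. All 5 mINDY-KO mice were below the WT mean with this probe but inside the WT range, and the log2 fold change was -0.15 (SE 0.097, 95% interval -0.35 to 0.059, limma adjusted p = 0.619). The 2 probes were only loosely related over the 10 mice (r = 0.26, a description), so that neither stands for the other.

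Prkar1a, the regulatory subunit that restrains protein kinase A until cAMP binds it, had signals from 6193 to 17660. Its levels were 5.05, 4.94, 5.09, 4.98 and 5.14 in WT and 5.09, 5.01, 5.13, 5.33 and 5.17 in mINDY-KO mice. Replicates 4 and 5 of the mINDY-KO mice were above every WT mouse. The log2 fold change was 0.11 (SE 0.075, 95% interval -0.052 to 0.27, limma adjusted p = 0.644), and it fell to 0.033 with quantile normalization and to 0.052 without mINDY-KO replicates 3 and 4, the arrays of lowest signal. The regulatory subunit genes Prkar2a and Prkar2b had 1 probe each, and neither was kept. Prkar2a was detected in 0 mice and Prkar2b in 3, of which 1 was WT and 2 were mINDY-KO.

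The promoters of these kinase subunits are shown because the pathway itself ends at the cAMP response element. In the 250 bases before each annotated start (RefSeq, GRCm38.p6), 7 member genes had 18 windows, some of which overlap. They were Creb1, Akr1b7, Prkaca, Prkar2a, Prkar1a, Prkar2b and Pde8b, which are not the 7 genes with a kept probe. Mc2r, Mrap and Crem had no window and were not searched. Of the 18 windows, 1, of Prkar1a, held the full element TGACGTCA. The shorter core TGACG, searched on both strands and also counted inside the full element, was found in 4 windows, 3 of Prkar1a and 1 of Prkaca. Of all 32851 windows of this length, 1.55% held TGACGTCA and 17.8% held TGACG on either strand. The first stretch below, 30 bases on the plus strand at chr11:109650889-109650918, holds the full element 49 bases before an annotated start of Prkar1a. The second, also on the plus strand at chr8:83972847-83972876, holds a core read from the other strand, CGTCA, 120 bases before a start of Prkaca. Capitals mark the element or core.
Prkar1a: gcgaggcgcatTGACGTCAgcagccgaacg
Prkaca: tctgcaactcgCGTCActcatccaggagcc
A match of letters is a description of the sequence and was not measured as binding here. The 95% intervals of the genotype difference included 0 for Prkar1a and Prkaca, as for every kept member but Mc2r, which had no window. A relation between element and genotype difference therefore could not be examined.

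Pde8b, a phosphodiesterase of high affinity for cAMP that limits steroid output in adrenal cortical cells, was close to background. Its signals were 128 to 251, and it was detected in 6 mice, 2 WT and 4 mINDY-KO. Levels were -0.95, -0.78, -0.69, -0.86 and -0.88 in WT and -0.97, -0.75, -0.62, -0.75 and -0.74 in mINDY-KO mice. The genotypes overlapped, with a log2 fold change of 0.066 (SE 0.079, 95% interval -0.10 to 0.23, limma adjusted p = 0.807). At a detection p under 0.01 the probe was no longer kept. The difference was 0.26 with the neqc background correction and 0.012 without mINDY-KO replicates 3 and 4.

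Creb1, the transcription factor that protein kinase A phosphorylates, was detected by 1 of its 6 probes. The other 5, of which 4 belong to another RefSeq transcript, were detected in 0 mice. Levels of the kept probe were -0.13, 0.0885, -0.12, -0.10 and -0.17 in WT and -0.19, -0.082, -0.21, -0.41 and -0.24 in mINDY-KO mice. In all, 4 of 5 mINDY-KO mice were below every WT mouse, and mINDY-KO replicate 2 was the exception. The log2 fold change of -0.14 (SE 0.077, 95% interval -0.31 to 0.026) did not pass the test, with an adjusted p of 0.546 (limma). It was -0.21 with neqc normalization and -0.083 without mINDY-KO replicates 3 and 4.

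Crem, the gene of the cAMP-induced repressor ICER, varied more from mouse to mouse than almost any other gene measured, and it did so in both genotypes. Of its 5 probes 3 were kept, and they followed one another closely (r = 0.95 to 0.98 over the 10 mice, a description). With the brightest, ILMN_1242622, levels were 1.33, 1.84, 0.46, 0.31 and 0.048 in WT and -0.0022, 0.21, 1.06, 0.89 and 1.04 in mINDY-KO mice. WT replicates 1 and 2 and mINDY-KO replicates 3, 4 and 5 were high, whereas the other 3 WT mice and the other 2 mINDY-KO mice were low. The SD within genotypes was 0.64 for this probe, 0.54 for ILMN_2602899 and 0.49 for ILMN_2964986, which was larger than in 99.9%, 99.8% and 99.6% of all kept probes, whose median was 0.14. Mrap, with an SD of 0.39, exceeded 98.9% of them.

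Between genotypes, the log2 fold changes of Crem were -0.16 (SE 0.31, 95% interval -0.81 to 0.50), -0.042 (SE 0.26, -0.60 to 0.51) and -0.16 (SE 0.24, -0.67 to 0.35) for the 3 probes in the same order, with limma adjusted p-values of 0.894, 0.974 and 0.855. These intervals were the widest among the members, as was the spread of these probes within genotypes. With this spread and number of mice, a small change of Crem could not be seen. Without WT replicate 2 all 3 differences became positive, at 0.10, 0.16 and 0.041. On the repeated array of WT replicate 1, the 3 probes differed from the first array by 0.085, 0.0033 and 0.21, far less than the mice differed from each other.

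**Figure D2:**
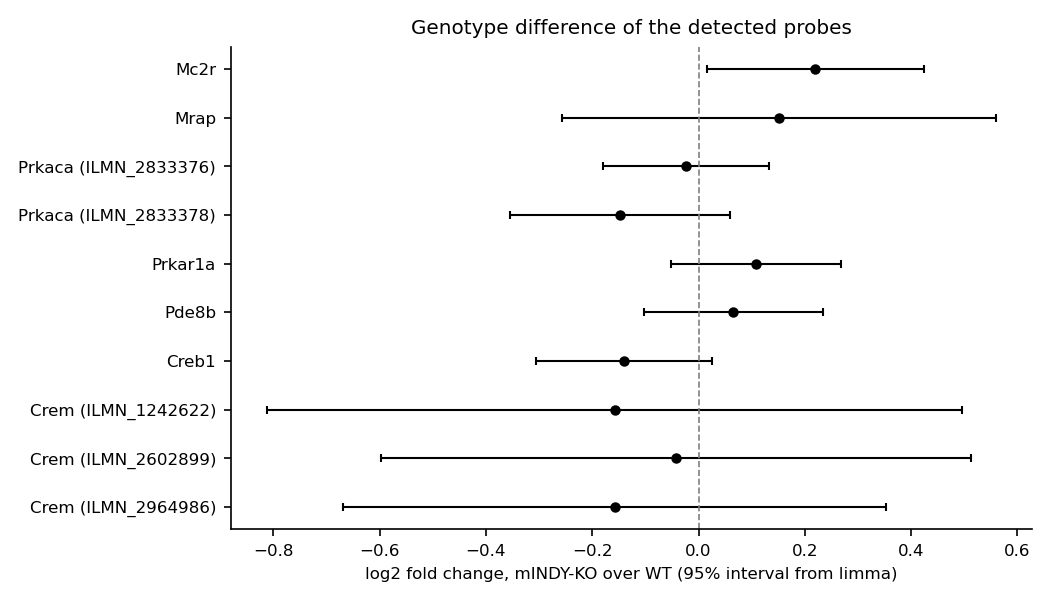
Log2 fold change of each kept probe, mINDY-KO over WT (horizontal axis), with its 95% interval from limma over 5 mice a genotype; the dashed line marks 0. The interval of Mc2r, 0.016 to 0.42, lies above 0 before adjustment for the number of probes, and the 9 others include 0.

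Whether the members varied together was examined over the 10 mice for all 21 pairs of the 7 genes, with the brightest probe of each and permutation tests adjusted over the pairs. Prkar1a and Creb1 ran opposite to each other, with r = -0.94 (permutation p = 5e-05, adjusted p = 0.00105) and rho = -0.94 (permutation p = 0.00025, adjusted p = 0.00525). The correlation was -0.87 without WT replicate 2 and mINDY-KO replicate 4 and -0.92 within genotypes. It depended on how arrays were scaled: r was -0.46 with neqc, -0.47 with quantile normalization and 0.31 with median centring, none of which passed the adjustment. Across arrays, the median signal had r = -0.61 with Prkar1a (permutation p = 0.0596, adjusted p = 0.448, rho = -0.35 with permutation p = 0.324) and r = 0.57 with Creb1 (permutation p = 0.0856, adjusted p = 0.448, rho = 0.47 with permutation p = 0.169). Leaving out WT replicate 2 and mINDY-KO replicate 4, these were -0.36 and 0.48. The part of array signal in the relation was not tested.

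Mrap and Crem were high in the same mice. Their correlation was r = 0.74 (permutation p = 0.0142, adjusted p = 0.0995) and rho = 0.82 (permutation p = 0.00575, adjusted p = 0.0604), which did not pass the adjustment. It was 0.94 without WT replicate 3 and mINDY-KO replicate 3, the mice farthest from the median of Mrap, and 0.79 within genotypes. With the other normalizations r was 0.67 (neqc), 0.68 (quantile) and 0.54 (median centring). Mc2r ran opposite to Crem (r = -0.68, permutation p = 0.0285, adjusted p = 0.150, rho = -0.45 with permutation p = 0.190), but the relation rested on WT replicates 1 and 2, without which r was 0.064. Prkaca and the dim Pde8b gave r = -0.76 (permutation p = 0.0115, adjusted p = 0.0995, rho = -0.71 with permutation p = 0.0274), -0.68 without mINDY-KO replicates 1 and 2, and passed the adjustment with neqc (r = -0.85, permutation p = 0.00124, adjusted p = 0.0260) and quantile normalization (r = -0.84, permutation p = 0.00162, adjusted p = 0.0340) but not with median centring (r = -0.63, permutation p = 0.0518, adjusted p = 0.203).

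Crem also followed the chromaffin cell markers. Their mean level was 3.33 to 3.89 in WT and 3.16 to 3.76 in mINDY-KO mice, and its correlation with Crem was r = 0.76 (permutation p = 0.0116, adjusted p = 0.325 over 56 relations of members with marker lists or array signal) and rho = 0.75 (permutation p = 0.0168), with r = 0.77 without WT replicate 2 and mINDY-KO replicate 1. No relation of these 56 passed the adjustment. Chromaffin cells make the catecholamines of the medulla and also use cAMP. The part of medullary RNA in the Crem values was not tested.

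**Figure D3:**
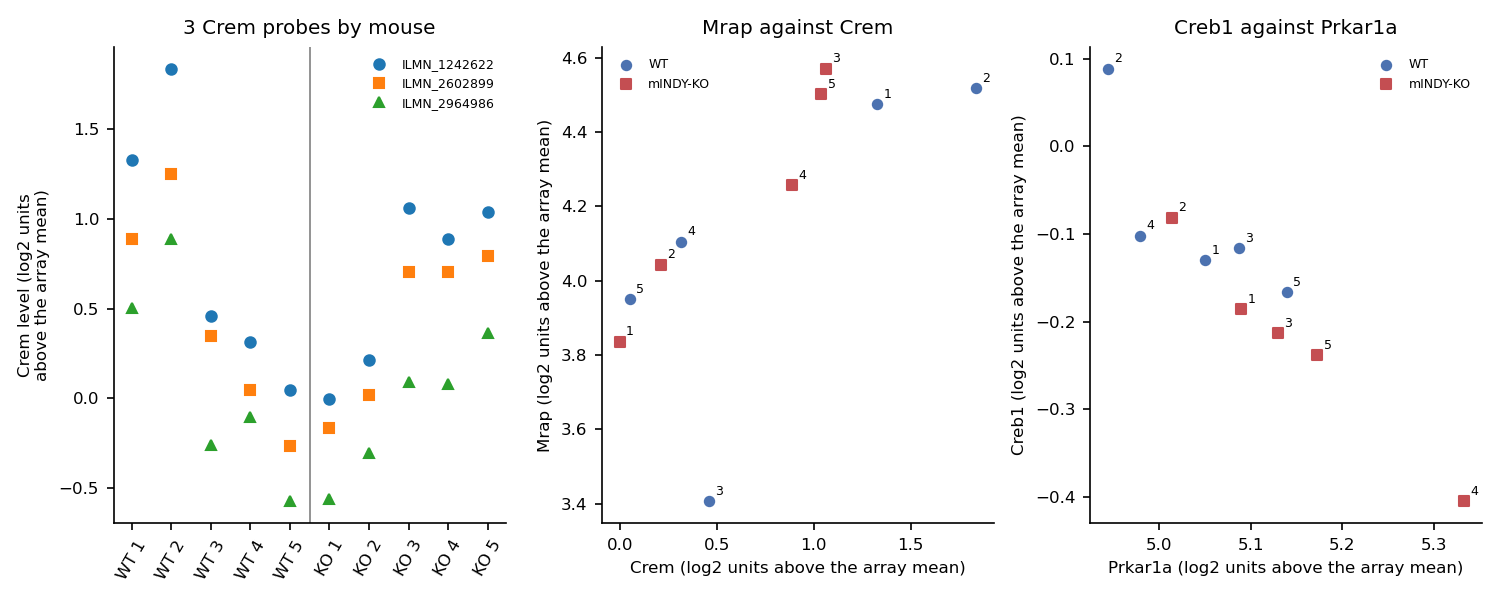
Left, levels of the 3 kept Crem probes (vertical axis, log2 units above the array mean) in each mouse. Middle and right, Mrap against Crem (ILMN_1242622) and Creb1 against Prkar1a over the same 10 mice, in log2 units above the array mean, with circles for WT, squares for mINDY-KO and numbers for replicates. WT replicates 1 and 2 and mINDY-KO replicates 3, 4 and 5 are high in Crem and in Mrap, and the opposite course of Creb1 and Prkar1a (r = -0.94) was not kept under other normalizations.

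Other genes of cAMP signaling were taken from a list of pathway genes. This list and those below were made with earlier results of these data known, so their counts are descriptions. Of 52 genes of G proteins, adenylyl cyclases, kinase A subunits, phosphodiesterases, anchoring proteins and coactivators, 32 were kept. None was called in either direction, 11 averaged higher and 21 lower in the mINDY-KO group, and their median log2 fold change was -0.062, beside -0.017 over all kept probes. At an unadjusted p under 0.05, 7 of the 32 differed, beside 10.9% of all kept probes, and 3 of the 32 separated the genotypes without overlap, beside 2.06%. These 3 were Crtc3, Prkar1b and Adcy4. Crtc3, a coactivator of CREB that moves into the nucleus when cAMP rises, was 0.57, 0.61, 0.15, 0.26 and 0.17 in WT and 0.025, -0.14, -0.21, -0.25 and -0.080 in mINDY-KO mice. Every mINDY-KO mouse was below every WT mouse. The log2 fold change was -0.49 (SE 0.10, limma adjusted p = 0.134) and stayed between -0.74 and -0.42 under all alternatives run.

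Prkar1b, a further regulatory subunit of protein kinase A, was 0.96 to 1.19 in WT and 0.71 to 0.94 in mINDY-KO mice, a log2 fold change of -0.25 (SE 0.071, limma adjusted p = 0.234). Adcy4, an adenylyl cyclase, was 0.555 to 0.64 in WT and 0.13 to 0.549 in mINDY-KO mice, with a log2 fold change of -0.25 (SE 0.084, limma adjusted p = 0.309), but a second Adcy4 probe gave only -0.054 (SE 0.083). Akap1, which anchors protein kinase A at mitochondria, differed by -0.25 (SE 0.095, limma adjusted p = 0.378) with its brightest probe and by -0.29 and 0.042 with 2 others.

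Genes listed as steroidogenic or as other targets of ACTH in the cortex, among them genes of sterol synthesis, gave no call either. Of 20 such genes 12 were kept, of which 8 averaged higher and 4 lower in the mINDY-KO group, with a median log2 fold change of 0.039, beside -0.017 over all kept probes. At an unadjusted p under 0.05, 4 of the 12 differed, beside 10.9% of all kept probes, and 1 of the 12 separated the genotypes without overlap, beside 2.06%. This was Mgst1, a microsomal glutathione transferase, at 4.48 to 4.88 in WT and 4.94 to 5.23 in mINDY-KO mice. Its log2 fold change was 0.41 (SE 0.091, limma adjusted p = 0.157), and a second probe gave 0.41 as well (SE 0.10). Fdps, a farnesyl diphosphate synthase of the cholesterol pathway, had 0.40 (SE 0.13, limma adjusted p = 0.297), and Hsd3b1, which oxidizes steroid precursors, had 0.25 (SE 0.11, limma adjusted p = 0.430). Scarb1, the receptor through which cortical cells take up cholesterol from high-density lipoprotein, went the other way with -0.41 (SE 0.14, limma adjusted p = 0.321), 4 of 5 mINDY-KO mice being below every WT mouse. The other kept genes had larger p-values. Cyp11a1 (0.043, SE 0.11) and Cyp21a1 (0.029, SE 0.16) differed by less than their standard errors. So did Cyp11b1 (-0.014, SE 0.14), Nr5a1 (-0.0041, SE 0.10) and the brightest Lipe probe (0.035, SE 0.087), while another Lipe probe gave 0.21 (SE 0.070). Star had 0.16 (SE 0.11), Msmo1 0.17 (SE 0.097) and Stard4 -0.16 (SE 0.088).

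Early genes that cAMP induces within a short time of a stimulus differed in their spread among mice. Junb, for example, spread widely in both genotypes (SD 1.15 in WT and 0.96 in mINDY-KO mice), and Jun hardly at all (0.080 and 0.055). The mean level of the early genes over 14 kept genes of 20 was 2.12, 1.93, 1.23, 1.83 and 1.80 in WT replicates 1 to 5 and 1.23, 1.86, 2.11, 2.02 and 1.57 in mINDY-KO replicates 1 to 5. WT replicate 3 and mINDY-KO replicate 1 were the lowest. None of the 14 was called, 6 averaged higher and 8 lower in the mINDY-KO group, and the median log2 fold change was -0.013, beside -0.017 over all kept probes. At an unadjusted p under 0.05, 1 of the 14 differed, beside 10.9% of all kept probes. This was Per2, a clock gene (-0.34, SE 0.13, limma adjusted p = 0.356). Dusp1, a phosphatase of MAP kinases, had 0.36 (SE 0.22, limma adjusted p = 0.601), and Id1 and Ier3 had -0.17 each (SE 0.15 each). Mrap followed the mean of the early genes with r = 0.75 (permutation p = 0.0119, adjusted p = 0.0833 over the 7 members, rho = 0.71 with permutation p = 0.0273, and r = 0.51 without WT replicate 3 and mINDY-KO replicate 3), and Crem with r = 0.52 (permutation p = 0.131, adjusted p = 0.339, rho = 0.62 with permutation p = 0.0599, and r = 0.38 without WT replicate 2 and mINDY-KO replicate 1). Neither passed the adjustment.

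In the absence of a probe for Akr1b7, its relatives were examined. Of 14 other aldo-keto reductases, enzymes that reduce aldehydes and ketones, 6 were kept, and all 6 had a higher mean in mINDY-KO mice, as did 44.1% of all kept probes. Their median log2 fold change was 0.098, beside -0.017 over all kept probes, and none was called. At an unadjusted p under 0.05, 2 of the 6 differed, beside 10.9%, and 1 of the 6 separated the genotypes without overlap, beside 2.06%. Akr1b8, from the same subfamily as Akr1b7, was 2.24, 2.20, 2.24, 2.15 and 2.31 in WT and 2.36, 2.43, 2.34, 2.47 and 2.62 in mINDY-KO mice. Every mINDY-KO mouse was above every WT mouse, by a mean of 0.22 (SE 0.071, limma adjusted p = 0.297). Akr1b10, of the same subfamily, differed by only 0.010 (SE 0.072, limma adjusted p = 0.977), and Akr1a1 by 0.033 (SE 0.11, limma adjusted p = 0.946). Akr1c12 was -0.16, -0.20, 0.96, 0.80 and 0.42 in WT and 1.21, 1.30, 1.14, 0.70 and 1.24 in mINDY-KO mice. Here 4 of 5 mINDY-KO mice were above every WT mouse, with a log2 fold change of 0.76 (SE 0.20, limma adjusted p = 0.209). Akr7a5 (0.11, SE 0.096) and Akr1e1 (0.084, SE 0.081) differed by about their standard errors, and the difference of Akr7a5 turned to -0.014 without mINDY-KO replicates 3 and 4. Near-identical members of this family may share signal between probes.

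**Figure D4:**
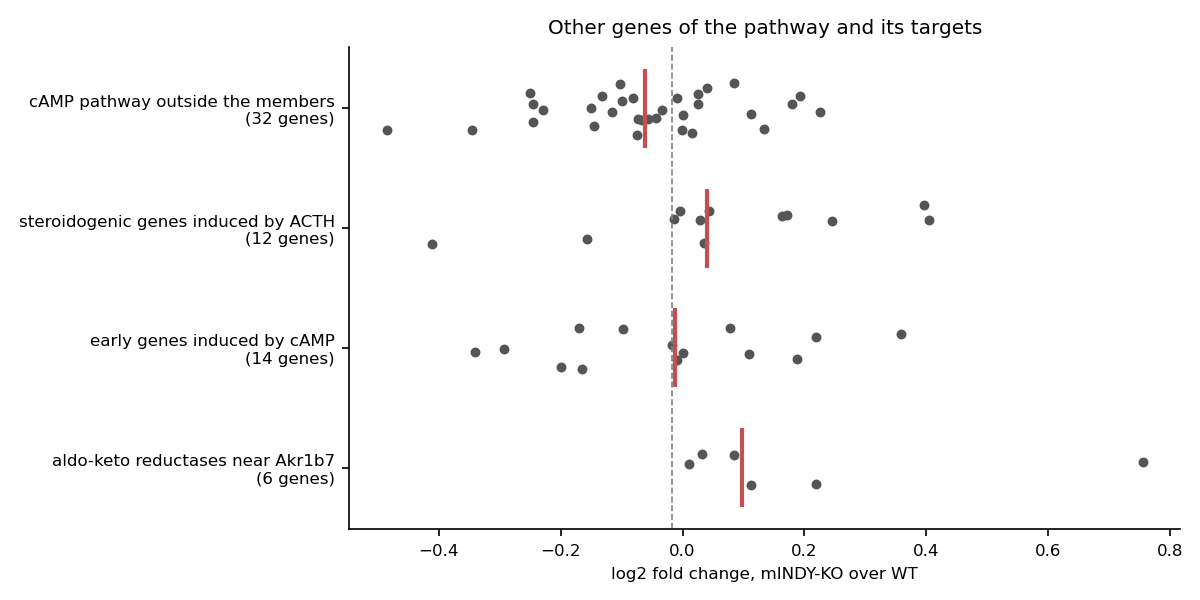
Log2 fold change, mINDY-KO over WT (horizontal axis), of each kept gene of 4 lists (points, with random vertical scatter), the list median (red bar) and the median over all kept probes (dashed line, -0.017). The lowest point of the cAMP pathway list is Crtc3 (-0.49), the highest point of the aldo-keto reductases is Akr1c12 (0.76), and no point passed an adjusted p under 0.05.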

How the data were processed

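Adrenal RNA of 5 mINDY-KO and 5 WT mice was measured on 11 Illumina bead arrays, 1 of them a technical repeat of WT replicate 1. The authors deposited a signal intensity and a detection p-value for each probe, taken from GenomeStudio and not normalized between arrays (the submitters' processing notes name version 2011.1), and in a second table its Z score. These Z scores equal the log10 signals minus the array mean, divided by the array SD, to within 0.0102.

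Z scores were computed in the same way from the signals and brought to log2 units with a common factor of 1.57 (the SD of log2 signals, averaged over the arrays). Such scaling sets every array to the same mean and spread, so that only changes relative to all probes are measured. The 2 arrays of WT replicate 1 were averaged, and for its detection the mean of both detection p-values was used. Of 25697 probes, 13341 had a detection p under 0.05 in at least 5 of 10 mice and were tested with limma 3.58.1 under R 4.3.3 (functions lmFit and eBayes, two-sided, Benjamini-Hochberg adjustment). The annotation gives 23978 probes 1 symbol each, none several, and leaves 1719 unnamed here. Lists used the brightest kept probe of a gene. Correlations used 100000 permutations, two-sided, with Benjamini-Hochberg adjustment within 21 member pairs, 56 relations with markers or array signal and 7 with early genes. Precision is limited by how few arrays there were. The sources used here give no slide, which was not tested. The fit was tested on simulated data. Figures were drawn with matplotlib 3.10.9.

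Named were all member probes, the 4 genes of smallest p in each list, the 3 probes most like Mc2r, cell type markers that moved with a member (an unadjusted permutation p under 0.05 for r or rho), and Slc13a5. The relations of Mrap with adipocyte, chromaffin cell, endothelial cell and macrophage markers were added outside this rule, all but the first after their values were seen. The remaining genes of the steroidogenic list, Akr1b10 and Akr1a1 of the aldo-keto reductases, and Jun and Junb of the early genes were also added after their values were seen. Members, lists, tests and alternatives were chosen with earlier results of these data known. The alternatives were neqc, quantile and median-centring normalization, the deposited Z scores, other detection filters, either array of WT replicate 1, the replicate number as a block, array weights, an intensity trend, and leaving out mice. Promoter sequences are from RefSeq (GRCm38.p6), which held 7 of 10 member genes; Mc2r, Mrap and Crem were not matched.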

Additional observations from a re-analysis of the deposited data

Results flagged for a closer look

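In 4 of 52 groups of 5 mice checked (26 values in 2 genotypes), 1 mouse lay far from the other 4, where chance flags about 1 in 20 groups. For Creb1, WT replicate 2 was the highest WT mouse at 0.0885, the others being -0.17 to -0.10. For Adcy4, WT replicate 3 was the lowest WT mouse at 0.555, the others being 0.62 to 0.64. For Hsd3b1, mINDY-KO replicate 2 was the highest mINDY-KO mouse at 2.64, the others being 2.24 to 2.34. For Akr1c12, mINDY-KO replicate 4 was the lowest mINDY-KO mouse at 0.70, the others being 1.14 to 1.30.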

How the results depend on the processing

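The counts of called members and of called list genes were 0 under all 22 alternatives. Over all probes, 2 were called, against 0 with neqc, median centring, no detection filter or without mINDY-KO replicates 3 and 4, 1 with the deposited Z scores, 6 with an intensity trend and 0 to 14 when mice were left out in turn. Of probes with an unadjusted p under 0.05, 39.2% were higher in mINDY-KO mice, against 49.2% with neqc, 49.3% with quantile normalization and 56.1% without mINDY-KO replicates 3 and 4. Replicate numbers did not pair the mice, since same-numbered mice had correlations of -0.30 to -0.11, and with the replicate number as a block 1 probe was called and 0 members.

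Of 26 single probes and genes, 6 turned sign under at least 1 alternative and none passed the test under any. Mrap (0.15) ranged from -0.020 to 0.26 when mice were left out, and Prkaca probe ILMN_2833376 (-0.024) from -0.067 to 0.0022. The Crem probes ranged from -0.35 to 0.10 (ILMN_1242622), -0.22 to 0.16 (ILMN_2602899) and -0.32 to 0.041 (ILMN_2964986), and ILMN_2602899 was 0.0076 with neqc. Akr7a5 was -0.014 without mINDY-KO replicates 3 and 4. The correlation of Prkar1a and Creb1 was 0.31 with median centring. These normalizations of correlations were chosen after seeing the data, and the cause was not tested. With median centring, Prkar1a instead correlated with Mc2r and with Prkaca past the adjustment. Both arrays of WT replicate 1 with mouse as a random block could not be fitted. Probes near background, Pde8b above all, limit what these arrays can show.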
